A study of Homo sapiens with 4 samples.

Results

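The 39 genes described here encode proteins of homologous recombination (16 genes), the Fanconi pathway (11 genes), end joining (6 genes), mismatch repair (2 genes) and the kinases of the DNA damage checkpoint (4 genes). They were chosen by name with earlier results of these data known, so shares of members set beside all genes are descriptions and not tests. Each name matched 1 row of a count table with 56304 different gene rows. All 39 passed the filter on low counts, which left 15529 genes for testing, and their counts in a single library ran from 80 to 28937.

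The samples were spheroids of MV3, a human melanoma cell line, in which every sample carried the H2B-GFP genotype, a histone H2B fused to green fluorescent protein. Spheroids of 50000 cells with a diameter of 1 mm were kept for 2 days in collagen I, a fibrous matrix into which the cells migrate. The core of a spheroid was taken with a biopsy punch of 1 mm and the invasion zone, the collagen around it with the cells that had left the spheroid, with a punch of 3 mm. The study states that the cut was vertical, so the core sample may keep invading cells from above and below the spheroid. RNA sequencing gave 2 libraries for each zone (replicates 1 and 2), and the labels do not say how many spheroids a library holds or whether a replicate number marks a shared spheroid, so that the p-values measure the spread between these libraries, which may be technical.

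The replicate 1 libraries held 36363358 (core) and 37591782 (invasion zone) counts and the replicate 2 libraries 14983135 and 11789243 counts, so replicate 1 is the more precisely counted of both. Levels are given as CPM, the usual scale on which the counts of a gene are divided by the summed counts of its library. The line is labelled as melanoma, but of 8 melanocytic lineage markers 6 stayed under 1 CPM in every library, and SOX10 and TYR had no count at all. In bulk RNA, fewer cells of a type and less RNA per cell cannot be told apart.

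Homologous recombination repairs a broken chromosome by copying the intact sister chromatid, and therefore works mainly in S and G2 phase. BRCA1 with BARD1 prepares the break, PALB2 and BRCA2 act on the resected strand, and RAD51C, RAD51D, XRCC2, XRCC3 and the RAD54 proteins assist the search and exchange of strands. The Fanconi pathway removes crosslinks between the strands: a multi-subunit ubiquitin ligase marks the FANCD2-FANCI pair, which then directs nucleases and recombination to the lesion. End joining ligates broken ends without a template at any time of the cell cycle, mismatch repair corrects replication errors, and the kinases ATM and ATR signal damage through CHEK2 and CHEK1.

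Most of the recombination and Fanconi genes had higher levels in the invasion zone, whereas the differences of most end joining, mismatch repair and checkpoint genes were smaller. The median log2 fold change (invasion zone over core) was 1.19 over the 27 homologous recombination and Fanconi genes and 0.29 over the other 12, beside -0.01 over all 15529 genes. FANCD2, the ubiquitinated subunit of the Fanconi pathway, RAD51AP1, which promotes strand exchange, and the helicase BLM had the largest log2 fold changes, with 1.67 ± 0.35 (SE), 1.64 ± 0.18 and 1.61 ± 0.32. ATM, FANCF and PMS2 were the 3 members with a log2 fold change below 0. In the plot of CPM by library, 33 of the 39 members (25 of 27 and 8 of 12) had their 2 invasion zone libraries above their 2 core libraries, an order found in 28.3% of all genes. FANCF and ATM had both below the core, as did 30% of all genes. The 4 members whose zones overlapped were MUS81, LIG4, MSH6 and PMS2.

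**Figure D1:**
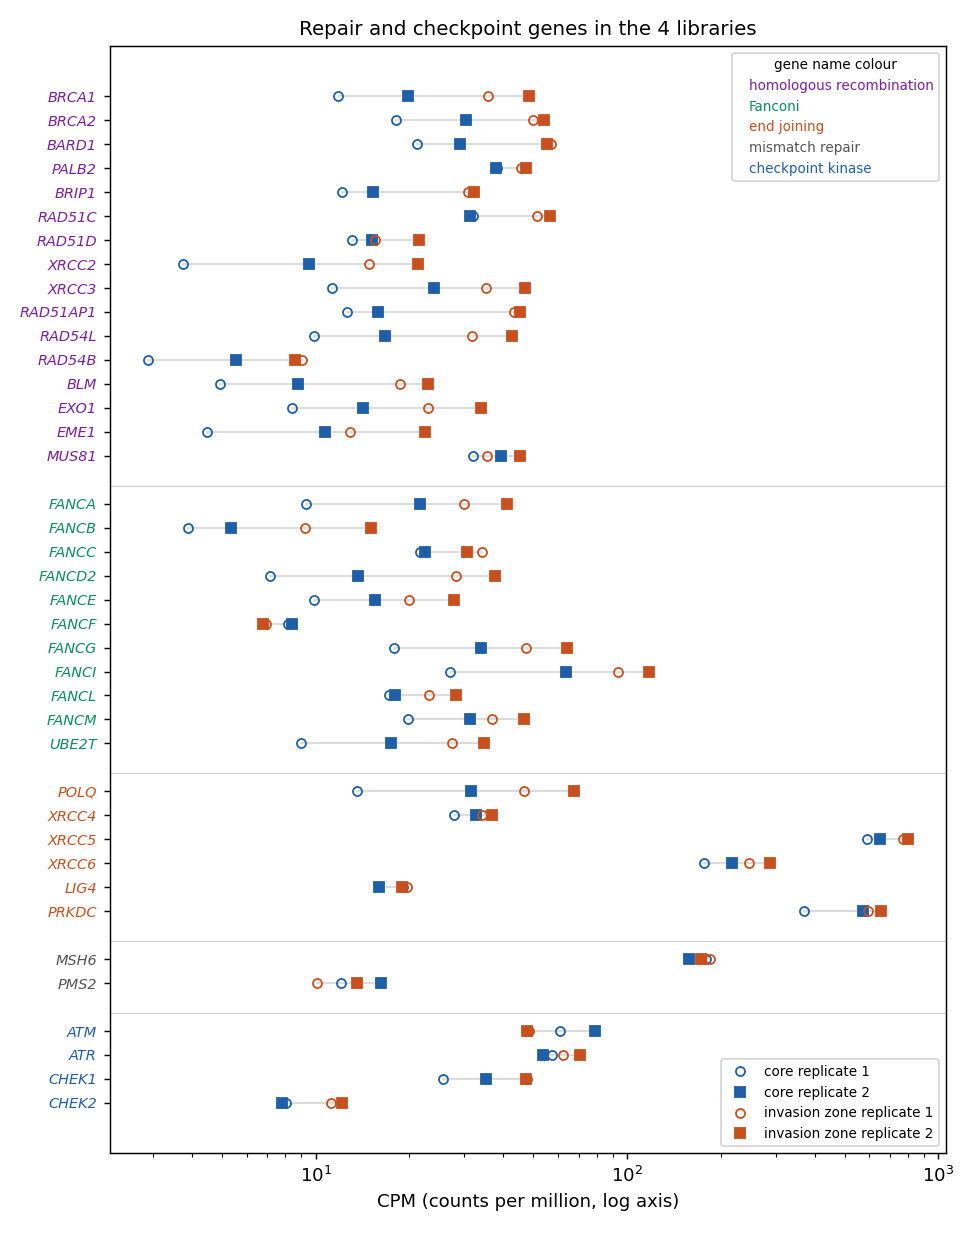
CPM of the 39 genes on a log axis, with 1 point for each of the 4 libraries (open circles, replicate 1, filled squares, replicate 2, blue, core, orange, invasion zone). For 33 genes both orange points lie to the right of both blue points, for FANCF and ATM to the left. CPM is not divided by gene length.

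The zones were compared with the quasi-likelihood test of edgeR, with Benjamini-Hochberg adjustment over the 15529 genes, and calling a gene took an adjusted p under 0.05 together with a change of at least 2-fold. With 2 libraries per zone, none of the 39 members was called, and neither was any other gene (0% of 15529 genes), the smallest adjusted p being 0.128. At an unadjusted p under 0.05 and at least 2-fold, 19 members were higher and 0 lower, where 2.92% of all genes were higher. Of these 19, 18 were among the 27 recombination and Fanconi genes and the remaining 1 was POLQ. The same 19 were those at a log2 fold change of at least 1, which 4.64% of all genes reached, and at an unadjusted p under 0.05 with any fold change there were 28 members, where 24.3% of all genes passed. DESeq2 called 17 members higher and 0 lower (2.27% of all genes were called higher), leaving out RAD54B and EME1, and limma voom called 0 members. RAD54B had an adjusted p of 0.0743 and EME1 of 0.0671 in DESeq2, in a span from 0.00925 to 0.553 and from 0.000557 to 0.464 over all settings tried.

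The calls of edgeR depended on the replicate term, the filter and single libraries. With the replicate number as a block, 19 members were called higher, as were 3.41% of all genes, but no source says that the number marks a shared spheroid. With every gene of at least 1 count in the test, 19 members were called higher and 1.3% of all genes. Without core replicate 1 the test called 1 member higher, RAD51AP1 (0.0872% of all genes), without core replicate 2 it called 21 (3.63%), without invasion zone replicate 1 it called 19 (3.85%), and without invasion zone replicate 2 it called 14 (1.21%), each fit assuming that the lone library varies like the pair of the other zone. Without core replicate 1, BRCA2, BARD1, XRCC2, XRCC3, RAD54B, EME1, FANCA, FANCG, FANCI, UBE2T and POLQ came under 2-fold and the recombination and Fanconi median fell to 0.79, against 1.62 without core replicate 2. Adjusted p-values below are from edgeR with all 4 libraries.

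**Figure D2:**
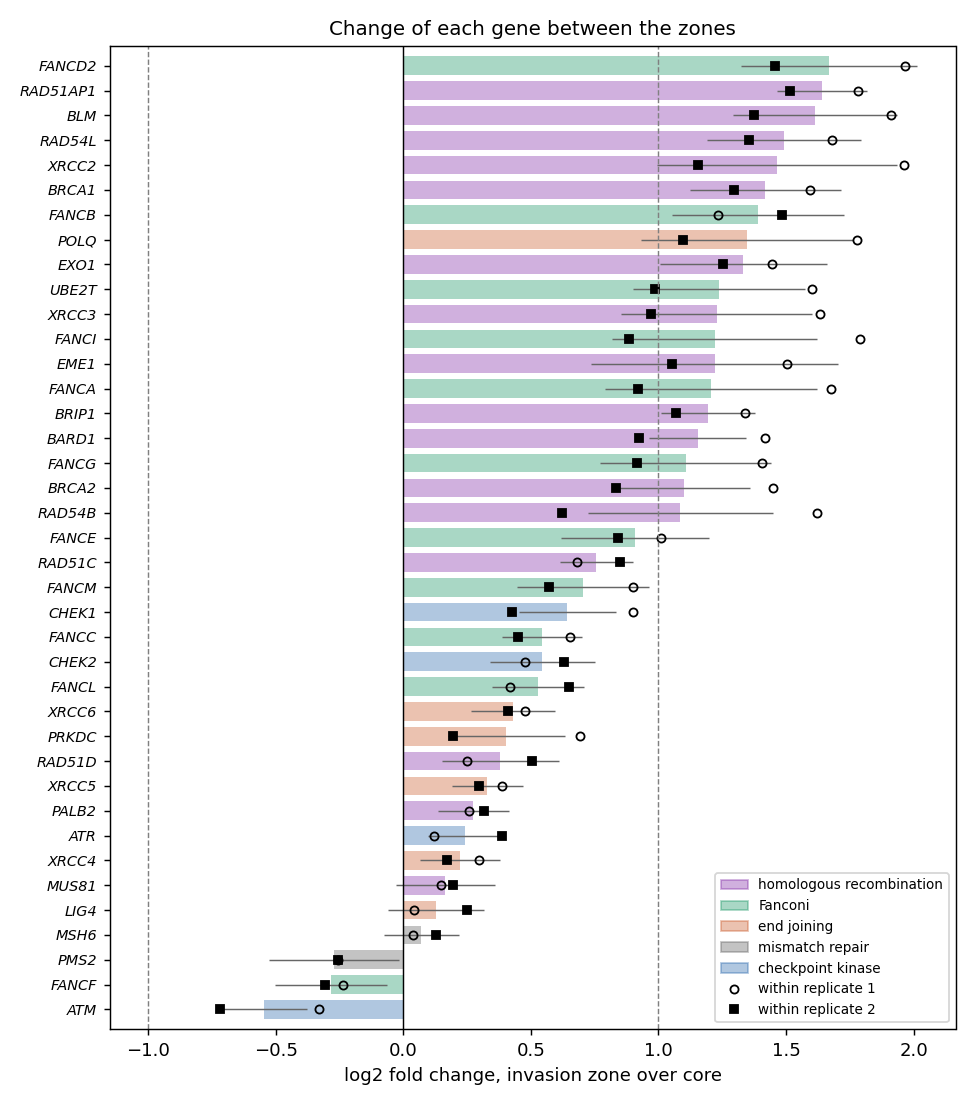
Log2 fold change (invasion zone over core) of the 39 genes from edgeR, sorted, with bars coloured by pathway, horizontal lines for 1 standard error, circles and squares for the difference within replicate 1 and replicate 2, and dashed lines at 2-fold. The 19 genes past the right dashed line are recombination or Fanconi genes except POLQ, and no bar reaches the left dashed line.

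The promoters of the members are shown because many S phase genes carry a site for E2F transcription factors, and these letters were not used to choose the genes. RefSeq promoters of 300 bases (250 before to 50 after a start site, GRCh38.p14) were found for 35 of the 39 members. RAD54B, FANCI, XRCC5 and PRKDC were the members not matched. An E2F-type site (TTTCCCGC, TTTCGCGC, TTTGCCGC or TTTGGCGC, either strand) lay in a promoter of 8 of the 35 members, or 22.9%, against 3.99% of the 27305 genes in the promoter table. Those 8 members were XRCC2, EXO1, FANCA, FANCD2, FANCC, XRCC6, MSH6 and PMS2. By class they were 5 of 25 recombination and Fanconi genes (20%) and 3 of 10 other members (30%). The share over all genes was not limited to genes tested, nor matched for GC content or promoters per gene. The site was in 4 of 17 members that were at least 2-fold higher (23.5%) and in 4 of 18 of the remainder (22.2%), so its share was about the same on both sides of the 2-fold line. A CCAAT box (CCAAT, either strand) was in 57.1% of the members against 39.7% of all genes, and a CHR element (TTTGAA or TTCGAA, either strand), which is found in G2/M promoters, in 14.3% against 19.5%. No match of these motifs overlapped another in the member promoters with an E2F-type site. A match describes letters and does not show binding.

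The stretches around the site are printed for the 3 members of the largest change that have one, FANCD2, XRCC2 and EXO1, and for both mismatch repair genes, whose zones overlapped. Each runs 5′ to 3′ on the strand of its gene, with the E2F-type site in capitals, which reads as the reverse complement of the listed letters in FANCD2 and XRCC2. The first capital lies at base -2 in FANCD2, counted from the start site (+1), at +22 in XRCC2, +5 in EXO1, +4 in MSH6 and -100 in PMS2. These positions are from the first promoter the table lists for the gene, and the same site of PMS2 lies at -43 from its other listed start site.
FANCD2 (chr3:10026375-10026466, plus strand): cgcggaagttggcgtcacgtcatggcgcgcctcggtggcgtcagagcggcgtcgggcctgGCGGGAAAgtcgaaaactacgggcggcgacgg
XRCC2 (chr7:152676112-152676180, minus strand): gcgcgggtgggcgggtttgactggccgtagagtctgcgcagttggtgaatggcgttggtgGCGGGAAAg
EXO1 (chr1:241848148-241848233, plus strand): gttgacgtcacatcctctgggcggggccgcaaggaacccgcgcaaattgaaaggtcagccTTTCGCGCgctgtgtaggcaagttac
MSH6 (chr2:47783088-47783174, plus strand): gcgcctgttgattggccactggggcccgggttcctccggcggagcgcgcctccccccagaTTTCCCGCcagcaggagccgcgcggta
PMS2 (chr7:6009082-6009209, minus strand): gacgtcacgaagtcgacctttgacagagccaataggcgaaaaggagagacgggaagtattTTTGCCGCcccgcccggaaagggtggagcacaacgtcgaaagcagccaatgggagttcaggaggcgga

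Among the genes of the BRCA complexes, 4 of 5 were at least 2-fold higher in the invasion zone. BRCA1, the ubiquitin ligase that commits a break to recombination (chr17:43044295-43170245, minus strand, GENCODE 44 on GRCh38), had 11.8 and 19.8 CPM in core replicates 1 and 2 and 35.8 and 48.6 CPM in invasion zone replicates 1 and 2. BARD1, its obligate partner, had 21.2 and 29.1 CPM in the core and 56.9 and 55.3 CPM in the invasion zone. BRCA2, which acts with PALB2 on the resected strand, had 18.2 and 30.4 CPM in the core and 49.7 and 54.2 CPM in the invasion zone. In all 3 genes the lower invasion zone library was well above the higher core library, and the log2 fold changes were 1.42 ± 0.30, 1.15 ± 0.19 and 1.10 ± 0.26, with adjusted p-values of 0.128, 0.128 and 0.133. BRIP1, the helicase that binds BRCA1, had 12.2 and 15.3 CPM in the core and 30.9 and 32.1 CPM in the invasion zone (log2 fold change 1.19 ± 0.18). PALB2, the bridge between BRCA1 and BRCA2, stood apart from its partners: 38.3 and 38.0 CPM in the core and 45.8 and 47.3 CPM in the invasion zone (0.27 ± 0.14, adjusted p 0.283).

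RAD51C, RAD51D, XRCC2 and XRCC3, subunits of complexes that assist strand exchange, were unequal. XRCC2 had 3.74 and 9.54 CPM in the core and 14.8 and 21.4 CPM in the invasion zone (log2 fold change 1.46 ± 0.47). RAD51D, which binds XRCC2 in the same complex, had 13.0 and 15.2 CPM in the core and 15.5 and 21.5 CPM in the invasion zone, with a log2 fold change of 0.38 ± 0.23 and neighbouring ranges. RAD51C had 32.0 and 31.3 CPM in the core and 51.4 and 56.5 CPM in the invasion zone. Its log2 fold change of 0.76 ± 0.14 was smaller than that of XRCC2, with a smaller standard error. XRCC3 had 11.3 and 24.0 CPM in the core and 35.3 and 47.1 CPM in the invasion zone (1.23 ± 0.37), but 76.7% of its exonic bases lie under KLC1 on the opposite strand and the strand setting of the counting is not given in the sources used here, so that reads of both genes may not be told apart. The same limit holds in part for 6 other members, whose exonic bases are shared mostly with genes on the opposite strand. These are MSH6 (24.2%), RAD54L (19.9%), FANCA (19.6%), EME1 (16.4%), MUS81 (14.1%) and CHEK1 (13.4%).

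The genes that assist strand exchange were higher in the invasion zone without exception. RAD51AP1 (chr12:4538798-4560047, plus strand) had 12.6 and 15.8 CPM in the core and 43.4 and 45.4 CPM in the invasion zone, and its libraries of a zone lay close together. It had the smallest unadjusted p of the members in edgeR (0.0002, adjusted p 0.128). RAD54L, a motor protein that drives strand invasion, had 9.85 and 16.7 CPM in the core and 31.8 and 42.8 CPM in the invasion zone (log2 fold change 1.49 ± 0.30). RAD54B, its paralog, had 2.89 and 5.54 CPM in the core and 9.04 and 8.57 CPM in the invasion zone (1.08 ± 0.36), and 66.0% of its exonic bases are shared with FSBP on the same strand, which makes its counts uncertain.

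Of the genes that resect ends or resolve joined molecules, 3 of 4 were at least 2-fold higher. BLM, which unwinds DNA for resection and dissolves joined chromatids, had 4.92 and 8.81 CPM in the core and 18.7 and 23.0 CPM in the invasion zone. EXO1, the resecting nuclease, had 8.39 and 14.2 CPM in the core and 23.0 and 34 CPM in the invasion zone (log2 fold change 1.33 ± 0.33). EME1 had 4.48 and 10.7 CPM in the core and 12.9 and 22.4 CPM in the invasion zone (1.22 ± 0.48), with core and invasion zone libraries that came close to each other. MUS81, the nuclease subunit that EME1 partners, had 31.9 and 39.5 CPM in the core and 35.4 and 45.3 CPM in the invasion zone, which overlapped, and a log2 fold change of 0.16 ± 0.19 that turned to -0.01 without invasion zone replicate 2.

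In the Fanconi pathway 10 of 11 genes had the 2 invasion zone libraries above the 2 of the core, and 6 were at least 2-fold higher. FANCD2 (chr3:10026370-10101932, plus strand) had 7.15 and 13.7 CPM in the core and 28.2 and 37.7 CPM in the invasion zone, with an adjusted p of 0.128. FANCI, its partner, had 27.0 and 63.8 CPM in the core and 93.7 and 118 CPM in the invasion zone (log2 fold change 1.22 ± 0.40). UBE2T, the ubiquitin-conjugating enzyme that modifies the pair, had 8.99 and 17.4 CPM in the core and 27.5 and 34.6 CPM in the invasion zone (1.24 ± 0.34). FANCL, the ligase subunit that recruits UBE2T, had 17.2 and 18.0 CPM in the core and 23.0 and 28.3 CPM in the invasion zone (0.53 ± 0.18).

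The core complex divided by gene. FANCA, FANCB and FANCG were past 2-fold, with log2 fold changes of 1.21 ± 0.41, 1.39 ± 0.34 and 1.11 ± 0.34. FANCA and FANCG, which bind each other, ran from 9.32 to 21.7 and from 17.8 to 34 CPM in the core and from 29.98 to 41.1 and from 47.3 to 64.3 CPM in the invasion zone. FANCB, the X-linked subunit that joins FANCL in the catalytic module, had 3.88 and 5.34 CPM in the core and 9.23 and 15.1 CPM in the invasion zone, and was the only Fanconi gene past 2-fold whose difference was larger in replicate 2 than in replicate 1 (1.49 and 1.23 in log2 CPM). FANCE and FANCM, the subunit that contacts FANCD2 and the translocase that anchors the complex to DNA, had log2 fold changes of 0.91 ± 0.29 and 0.70 ± 0.26, and FANCC of 0.55 ± 0.16, all under 2-fold. FANCF, the adaptor between the subcomplexes, went the other way, with 8.17 and 8.41 CPM in the core and 6.92 and 6.79 CPM in the invasion zone. Its log2 fold change was -0.28 ± 0.22 with an adjusted p of 0.472, and its libraries of a zone differed by less than the zones did.

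Of the end joining genes, 1 of 6 was at least 2-fold higher. POLQ, the polymerase of the theta-mediated route that uses resected ends with short homologies, had 13.6 and 31.4 CPM in the core and 46.8 and 67.3 CPM in the invasion zone (log2 fold change 1.35 ± 0.42, adjusted p 0.156, and 0.87 without core replicate 1). No gene of the classical route reached 2-fold. XRCC5 and XRCC6, the Ku subunits that hold broken ends, had 589 and 649 CPM and 177 and 217 CPM in the core, and 770 and 797 CPM and 246 and 288 CPM in the invasion zone. Their log2 fold changes of 0.33 ± 0.14 and 0.43 ± 0.16 were close to each other. PRKDC, the kinase that Ku recruits, had 369 and 572 CPM in the core and 596 and 656 CPM in the invasion zone, so that core replicate 2 was nearer to the invasion zone than to its own replicate (log2 fold change 0.40 ± 0.23). The ligase LIG4 overlapped between zones, with 19.1 and 16.0 CPM in the core and 19.6 and 19 CPM in the invasion zone, and its scaffold XRCC4 had 27.8 and 32.7 CPM against 34.2 and 36.8 CPM. Their log2 fold changes were 0.13 ± 0.19 and 0.22 ± 0.16.

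Neither mismatch repair gene separated the zones. MSH6, the subunit that recognises mismatches, had 180 and 158 CPM in the core and 185 and 173 CPM in the invasion zone (log2 fold change 0.07 ± 0.15, adjusted p 0.808). PMS2, the nuclease subunit, had 12.1 and 16.2 CPM in the core and 10.1 and 13.6 CPM in the invasion zone (-0.27 ± 0.25, adjusted p 0.549). The annotation names 15 pseudogenes after PMS2, which may take part of its reads. Pseudogenes are also named after CHEK2 (7), XRCC6 (5), and BRCA1, RAD51AP1 and FANCD2 (1 each).

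The checkpoint kinases went in both directions. ATM, which responds to broken ends, had 60.9 and 78.8 CPM in the core and 48.4 and 47.8 CPM in the invasion zone, and was the member with the lowest log2 fold change, -0.54 ± 0.17 (unadjusted p 0.0209 and adjusted p 0.156 in edgeR, adjusted p 0.106 in DESeq2, span 0.00589 to 0.498 over all settings tried). ATR, which responds to stalled replication, had 57.4 and 53.9 CPM in the core and 62.4 and 70.4 CPM in the invasion zone (0.24 ± 0.15). The effector of ATR, CHEK1, had 25.6 and 35.3 CPM in the core and 47.9 and 47.5 CPM in the invasion zone, and the effector of ATM, CHEK2, 8.03 and 7.81 CPM against 11.2 and 12.1 CPM. Both effectors thus lay higher in the invasion zone, with log2 fold changes of 0.64 ± 0.19 and 0.54 ± 0.21 and adjusted p-values of 0.152 and 0.192, while the annotation names 7 pseudogenes after CHEK2.

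The contrast between the 27 recombination and Fanconi members and the other 12 members was present within each replicate. Taken as the difference of log2 CPM between the zones, the recombination and Fanconi median was 1.45 in replicate 1 and 0.92 in replicate 2, and that of the other 12 genes 0.34 and 0.27. The difference between these medians was 1.10 in replicate 1 and 0.65 in replicate 2. A total of 36 members were higher in the invasion zone in both replicates (92.3%, against 40.5% of all genes), and ATM, FANCF and PMS2 were lower in both. For 27 members the absolute difference was the larger one in replicate 1, as it was for 6726 of the 15529 genes tested. The core libraries differed from each other as well, since 33 of 39 members were higher in core replicate 2 than in core replicate 1 (84.6%, against 53% of all genes), and 31 were higher in invasion zone replicate 2 than in replicate 1 (79.5%, against 48.5%).

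**Figure D3:**
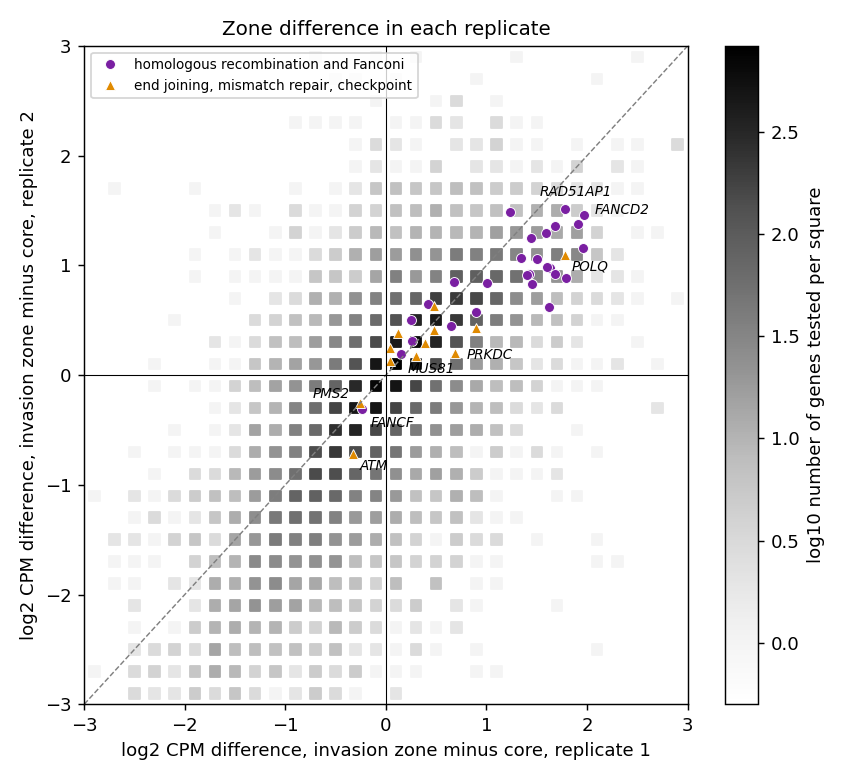
Difference of log2 CPM between invasion zone and core in replicate 1 (horizontal) against replicate 2 (vertical), with circles for the 27 recombination and Fanconi genes, triangles for the other 12, grey squares for the log10 number of all tested genes within axes limited to ±3, and a dashed line of equality. The members lie in the upper right except ATM, FANCF and PMS2 in the lower left. Below the line of equality are 28 of 39 members, and 9418 of the 15529 genes tested.

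Ratios between partners within a library do not depend on its depth or scaling. EME1 to MUS81 counts stood at 0.141 and 0.272 in the core and 0.364 and 0.494 in the invasion zone, BRCA2 to PALB2 at 0.473 and 0.798 against 1.09 and 1.15, and XRCC2 to RAD51D at 0.287 and 0.630 against 0.954 and 0.992. In these 3 pairs the ratio was higher in both invasion zone libraries than in both core libraries. The 2 core libraries also differed from each other, and whether the partners differed between the zones by unequal factors was not tested. By contrast, the counts of BRCA1 to BARD1 (0.556 and 0.679 against 0.629 and 0.879), of the Ku subunits XRCC5 to XRCC6 (3.33 and 3.00 against 3.13 and 2.77) and of LIG4 to XRCC4 (0.687 and 0.488 against 0.575 and 0.516) overlapped between the zones. ATM to ATR was the 1 ratio of 13 that was lower in both invasion zone libraries, at 0.776 and 0.680 against 1.06 and 1.46 in the core. The 13 pairs and the gene placed first in each were chosen by hand, and no share over other pairs of genes was computed. CHEK2 to ATM was 0.231 and 0.254 in the invasion zone and 0.132 and 0.0992 in the core. The ratio of POLQ to LIG4, the polymerase of one end joining route to the ligase of the other, was 2.38 and 3.54 in the invasion zone and 0.713 and 1.97 in the core.

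**Figure D4:**
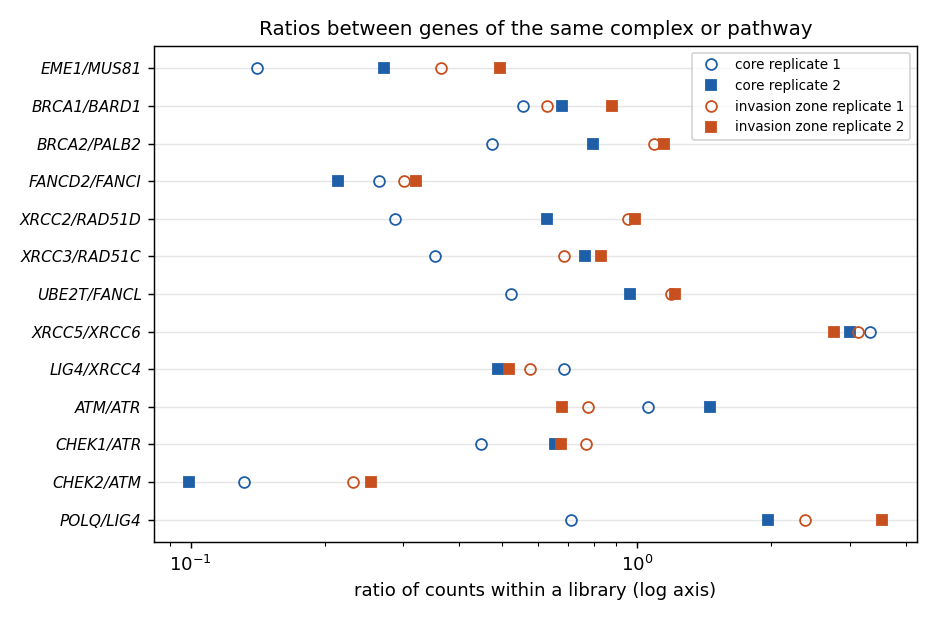
Ratio of the counts of 13 pairs of members in each of the 4 libraries on a log axis (symbols and colours as in the plot of CPM by library). Both invasion zone libraries lie above both core libraries for 8 pairs and below for ATM to ATR, and 4 pairs overlap. Among single genes, 28.3% had that order above and 30% below, and no share was computed for other pairs. The direction depends on which gene stands first.

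Levels of different genes can be compared only per length, here as mean CPM per kb of exonic sequence in GENCODE 44, which counts alternative exons too. On that scale the end joining proteins that bind broken ends led in both zones, XRCC5 with 113 in the core and 143 in the invasion zone, XRCC6 with 60.6 and 82.3 and PRKDC with 16.2 and 21.5. RAD51AP1 went from 5.55 in the core to 17.4 in the invasion zone and UBE2T from 6.84 to 16.1, which brought both close to the level of PRKDC in the core. FANCL and FANCB were the lowest per kb, with 0.464 and 0.347 in the core and 0.676 and 0.915 in the invasion zone. Their places depend on annotated exonic lengths of 37977 and 13297 bases, against 1930 for UBE2T. Without division by length, FANCL had a mean of 17.6 CPM in the core, above the 13.2 CPM of UBE2T.

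The other genes of the same pathways came from lists that hold none of the 39. Of 46 further recombination and Fanconi genes tested, 5 were at least 2-fold higher at an unadjusted p under 0.05, where 2.92% of all genes were, and none at least 2-fold lower (median 0.37). Of these 46, edgeR called 0 and DESeq2 called 4 (2.27% of all genes were called higher). The largest changes were those of PSMC3IP and MND1, which form a complex that promotes strand exchange, with 1.46 and 3.87 CPM in the core and 6.01 and 14.1 CPM in the invasion zone for PSMC3IP (1.94 ± 0.62) and 3.80 and 6.61 CPM against 13.3 and 15.6 CPM for MND1 (1.48 ± 0.32). None of 15 further end joining genes and of 7 further mismatch repair genes passed that mark in either direction, with medians of 0.24 and 0.33. With 2.92% of all genes higher at that mark, lists of 15 and 7 genes are too short to be set apart from all genes. At an unadjusted p under 0.05 with any fold change, which 24.3% of all genes passed, edgeR had 21 of the 46 recombination and Fanconi genes, 4 of the 15, 3 of the 7 and 11 of the 20 checkpoint genes described next, and DESeq2 called 0 of the 15 and of the 7. TDP1, which cleans blocked ends, had a log2 fold change of 0.62 ± 0.23, and LIG1, the replicative ligase, of 0.88 ± 0.24. Of 20 further checkpoint genes 6 were at least 2-fold higher at an unadjusted p under 0.05 (median 0.48), edgeR called 0 and DESeq2 called 6. The recombination and Fanconi median of these further genes (0.37) thus lay between those of the other lists (0.24, 0.33 and 0.48). The contrast seen among the members was not present in them. CLSPN, the adaptor through which ATR activates CHEK1, had 15.3 and 27.4 CPM in the core and 57.8 and 91.5 CPM in the invasion zone (1.80 ± 0.35), and CDC25C, a phosphatase that starts mitosis and is inhibited by CHEK1, a log2 fold change of 1.66 ± 0.43.

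Cell cycle markers were higher in the invasion zone too. Of 20 S phase markers, none of them a member, 15 were at least 2-fold higher at an unadjusted p under 0.05, where 2.92% of all genes were (median log2 fold change 1.08). Their summed level was 968 and 1526 CPM in the core and 2375 and 2860 CPM in the invasion zone. Of 15 G2/M markers 14 were (median 1.29), with sums of 919 and 2103 CPM against 3153 and 4104 CPM. The medians of both marker lists were close to that of the recombination and Fanconi genes (1.19) and above that of the other 12 members (0.29). The sums of both marker lists rose from core replicate 1 to core replicate 2, invasion zone replicate 1 and invasion zone replicate 2. The summed CPM of the 27 recombination and Fanconi members and that of the other 12 members stood in the same order. edgeR called 0 markers of either list and DESeq2 called 15 and 14 (2.27% of all genes were called higher). The part of the cell cycle markers in the result was not tested.

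Markers of other cell types were also examined, although the methods name MV3 cells as the only cells put into the spheroids. The 5 immune and the 4 keratinocyte markers stayed under 1 CPM in every library. The fibroblast markers DCN and LUM were at 0, but PDGFRA had 93.7 and 58.6 CPM in the core and 38.0 and 13.7 CPM in the invasion zone, and the 6 fibroblast markers summed to 121 and 82.3 CPM in the core and 49.1 and 23.7 CPM in the invasion zone. Of 4 endothelial markers 3 stayed under 1 CPM, and the sum of the list, nearly all of it PECAM1, was 18.0 and 7.68 CPM in the core and 5.75 and 0.933 CPM in the invasion zone. The part of these markers in the differences of the members was not tested.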

How the data were processed

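The authors deposited raw counts, whole numbers of uniquely mapped reads per gene. Per the labels and the methods, cDNA was made from low-input total RNA, ribosomal reads were removed with Bowtie, reads were aligned to hg38 with STAR and counted with HTSeq-count, and DESeq2 served for the study's own comparison, which the table does not hold. Not given in the sources used here are the versions of these tools, the gene annotation and whether counting used strand. The table holds 56306 rows, of which 2 repeated rows were left out, and columns were assigned by the zone and replicate in their names.

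Counts were tested in R 4.3.3 with edgeR 4.0.16 (TMM scaling, filterByExpr with 10 counts at the median library size and 15 in total, quasi-likelihood test, no replicate term), on 2 against 2 libraries, with Benjamini-Hochberg adjustment over 15529 genes. DESeq2 1.42.0 and limma 3.58.1 (voom) were alternatives, as were other scalings, filters, thinning, a replicate block and leaving out each library. The standard error is the log2 fold change without a prior count divided by the square root of F. Within-replicate differences used log2 CPM with a prior count of 2. Positions came from GENCODE 44, which holds 98.1% of the identifiers. The code of the fit was run on simulated counts, whose dispersion was set and not taken from these data. That run checks the code and does not show how many changed genes the fit would find here. Figures were drawn with matplotlib 3.10.9.

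The 39 members and the lists were chosen with earlier results of these data known, so no test over a list was made. All members are named. Genes of the other lists are named only from those of the largest absolute change in their list. Libraries of a zone differed by more than sampling noise, so none was counted as a repeat. Precision from counts covers counting error only. For 1 further gene of these pathways, outside the 39, no value of its own is reported here.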

Additional observations from a re-analysis of the deposited data

How the results depend on the processing

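The count of genes called by edgeR over all genes was 0 higher and 0 lower with all 4 libraries, and stayed at 0 with RLE, upper-quartile or no scaling factors, with at least 10 counts in every library, in limma voom, after thinning to the smallest library and with no fold change minimum. It became 427 higher and 846 lower with every gene of at least 1 count, 353 and 534 in DESeq2, 454 and 909 at an unadjusted p, 444 and 840 at an unadjusted p in DESeq2, and between 13 and 632 higher and 125 and 1137 lower without 1 library (13 and 125 when core replicate 1 was left out, 632 and 665 for core replicate 2, 576 and 1137 for invasion zone replicate 1, 212 and 347 for invasion zone replicate 2). Of the members, 19 were called higher with every gene of at least 1 count, 17 in DESeq2, 19 at an unadjusted p in either tool, and 1 to 21 without 1 library. Of the further pathway genes, 11, 10, 11 and 11 were called higher in that order, and 1 to 18 without 1 library, with 0 to 1 lower. The cause of these shifts was not tested.

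By the methods, each dissected spheroid gave a core and its invasion zone, and the columns of each replicate have adjacent library numbers, but no source ties a number to a single spheroid or batch, and with 2 pairs the data do not settle it. With the replicate number as a block, on 1 residual degree of freedom, edgeR called 530 genes higher and 1097 lower, among them 19 members and 12 further pathway genes, all higher, and with no fold change minimum 3010 and 3009 genes, 29 members higher and 1 lower (ATM), and 46 further pathway genes higher and 5 lower. Deviations of same-numbered libraries from their zone means correlated at 0.584 across genes.

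The recombination and Fanconi median ran from 0.79 to 1.62 without 1 library, that of the other members from 0.24 to 0.36, and the difference between them from 0.50 to 1.26, the lowest and highest differences without core replicate 1 and 2. Other settings left the medians within the spread between replicates, also with POLQ counted among the recombination genes (1.20, 0.24 and 0.96). The sign turned in 3 members: MUS81 ran from -0.013 (without invasion zone replicate 2) to 0.33, and LIG4 from -0.0014 to 0.29 and MSH6 from -0.0267 to 0.19 (both lowest without core replicate 2). Differences as small as those of LIG4 and MSH6, under their standard errors, were not detectable with 2 libraries per zone.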
